A study of Ovis aries with 6 samples.

Results

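The genes of the cytosolic ribosomal proteins were followed in the choroid plexus of ewes, across 3 groups of pooled RNA. Members were the listed genes whose symbol has the form of a cytosolic ribosomal protein (RPL or RPS with a number, RPLP0 to RPLP2, or RPSA) and whose mean over the 6 pools was at least 1 CPM, where CPM are counts scaled to a total of 1000000 per pool. The rule took 77 of the 33609 listed genes, with 76 distinct symbols because RPS26 has 2 identifiers. They comprised 38 genes of the large subunit, 32 of the small subunit, 3 of the P stalk and 4 paralogs. RPL3L, a paralog with 0.568 CPM, was the only symbol match below the minimum, and RPL26L1, RPL22L1 and RPL7L1 lay nearest above it at 17.1, 19.3 and 39.7 CPM. All 77 members had enough counts to be tested. RPL17, RPL39 and RPL41 were not analysed here.

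The groups were thyroidectomised ewes kept in long days (THX), ewes in long days labelled as controls (Long) and ewes in short days labelled as controls (Short). The design text states 24 ewes, with 8 in the Long and in the Short group and 7 in THX, which sum to fewer than stated, and the labels give no age, breed or time since surgery. Each pool mixed equal amounts of RNA from 3 to 4 ewes, 2 pools a group, so THX differed from Long in the thyroid at one day length, Long from Short in day length among the controls, and THX from Short in both. The p-values rest on how the pools differ, and the variation from ewe to ewe within a pool cannot be seen.

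A cytosolic ribosome is built from ribosomal RNA and a set of ribosomal proteins, most of them needed in equal numbers, and their mRNAs are among the most abundant of a cell. Many of these mRNAs start with a run of pyrimidines, the 5′ terminal oligopyrimidine (TOP) tract, through which the kinase complex mTORC1 and the RNA-binding protein LARP1 control their translation and stability in mammalian cells. The choroid plexus epithelium makes and secretes large amounts of protein, transthyretin (TTR) foremost.

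Total counts per pool ran from 48282883 to 82100653. Choroid plexus epithelium markers were present, with TTR at 8.90% to 13.3% of all counts and the other 9 markers summing to 2377 to 2669 CPM in THX pools, 2478 to 2497 CPM in Long pools and 2477 to 2514 CPM in Short pools. On a principal component analysis of the 17942 tested genes that were no members, THX pool 2 lay at one end of the first component (score 42.6) and Short pool 1 at the other (−38.2), with the other 4 pools between −18.6 and 8.62. THX pool 1 lay apart on the second (47.8, the others between −18.8 and 5.18).

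The 77 genes together held a larger share of the RNA in THX and Long pools than in Short pools. Their share of all counts was 4.41% and 5.02% in THX pools, 4.52% and 4.40% in Long pools, and 3.41% and 3.88% in Short pools. Wilson intervals for counting error reach at most 0.00545 percentage points to either side, and cover that error alone. The means were 4.72 ± 0.431% in THX, 4.46 ± 0.0819% in Long and 3.64 ± 0.330% in Short pools (SD, n = 2 each). Both Short pools lay below the other 4, whereas THX pool 1 lay between the Long pools and THX pool 2 above both. In such bulk tissue, fewer cells of a type and less RNA per cell cannot be told apart. TTR, the gene with the most counts, held 11.7% and 13.3% in THX, 10.8% and 10.9% in Long, and 8.90% and 9.64% in Short pools. The highest and the lowest pool were the same for TTR as for the ribosomal proteins, THX pool 2 and Short pool 1. With TTR taken out of the totals the mean share was 5.40% in THX, 5.0% in Long and 4.02% in Short pools.

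**Figure D1:**
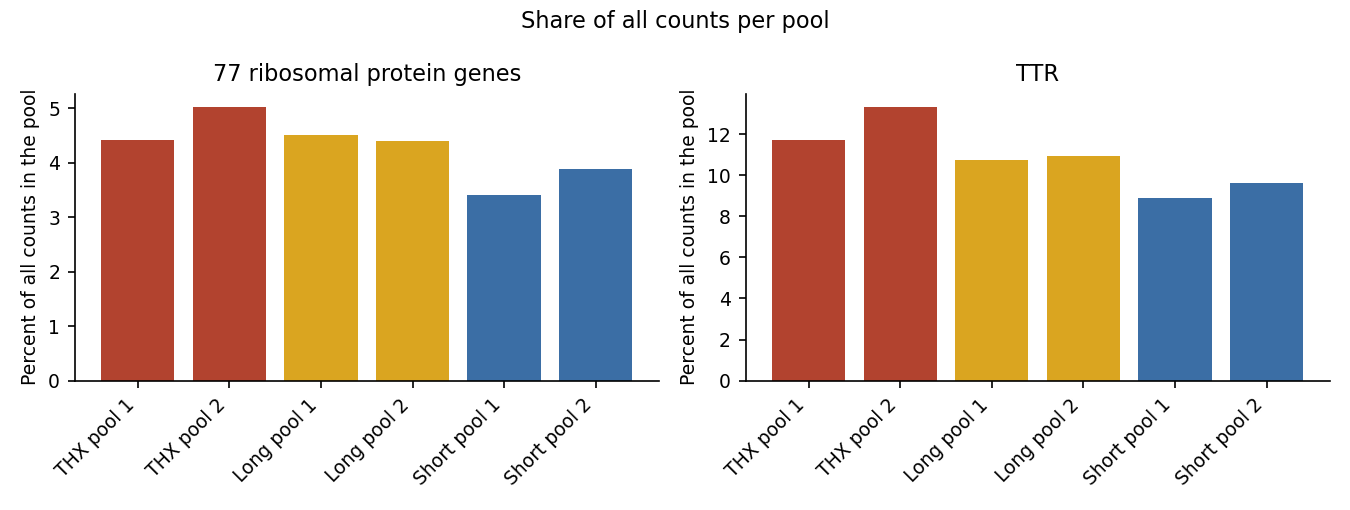
Percent of all counts (y axis, starting at 0) in each of the 6 pools (x axis) held by the 77 ribosomal protein genes (left) and by TTR (right). The 2 Short pools, at 3.41% and 3.88%, are the lowest of the ribosomal protein bars, and THX pool 2 is the highest at 5.02%.

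The members varied together from pool to pool. On a log2 scale centred on each gene's mean over the pools, their median was 0.09 and 0.32 for THX, 0.09 and 0.05 for Long, and −0.36 and −0.19 for Short pools. Short pool 1 was the lowest pool for 73 of the 77 genes and THX pool 2 the highest for 73. How often this holds over all tested genes was not counted. The same pools lay at the ends of the first component of the genes that were no members (−38.2 and 42.6). In 74 of the 77 members both Short pools lay below all 4 other pools, an arrangement seen in 16.6% of all tested genes. Across the 6 pools the 2926 pairs of members had a median correlation of 0.981 (5th percentile 0.661), as a description of pools that share library and scaling. The level of a typical member spanned 0.70 on the log2 scale over the pools, and its distance from the members' median spanned 0.12. For 66 of the 77 that second span was under 0.25.

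**Figure D2:**
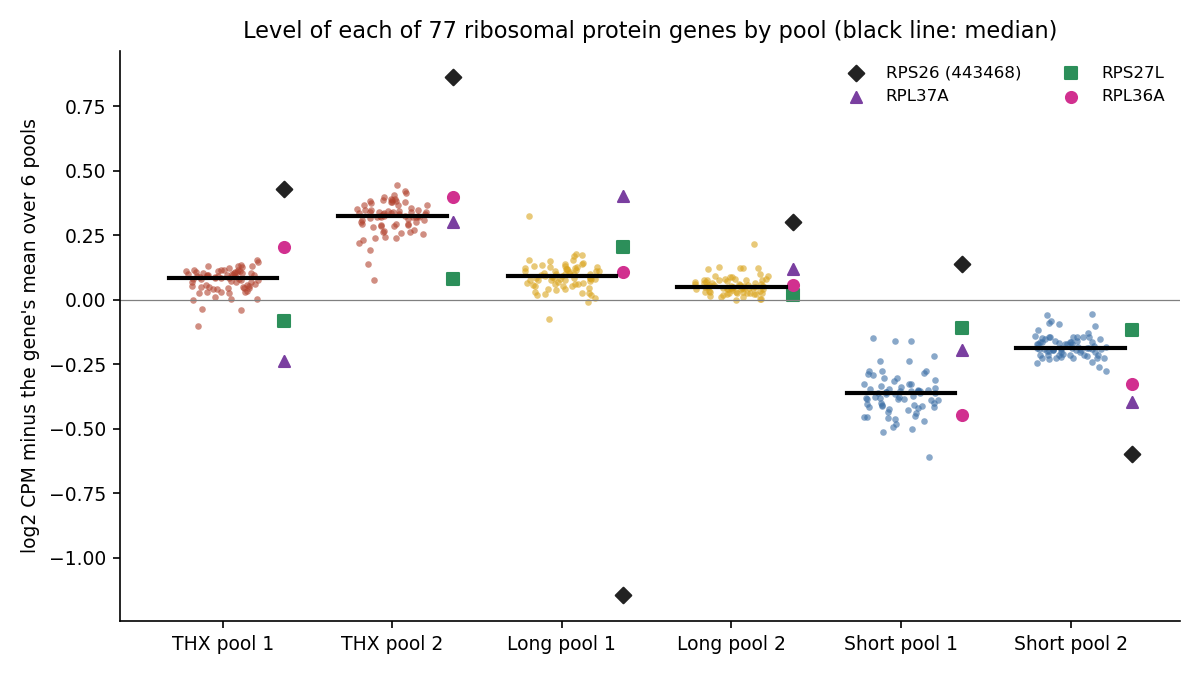
Level of each of the 77 genes in each pool, as log2 CPM minus the gene's mean over the 6 pools. Points are genes, black lines are medians (from 0.32 in THX pool 2 to −0.36 in Short pool 1), and RPS26 (identifier 443468), RPL37A, RPS27L and RPL36A are marked because they stand outside the cloud in some pools or passed a test.

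Comparing Long with Short pools asks about day length in control ewes. In log2 difference 76 of the 77 genes lay above 0, against 49.7% of all tested genes, with a median of 0.35 (1.27-fold) and an interquartile range of 0.30 to 0.39, where that of all tested genes was −0.19 to 0.16. Both Long pools lay above both Short pools in 76 of 77 genes, against 26.7% of all genes. The median was 0.34 for the large subunit, 0.36 for the small subunit, 0.32 for the P stalk and 0.21 for the paralogs. None of the 77 passed the test over all 18019 genes by edgeR (adjusted p from 0.342 to 0.959), and none of all tested genes did, 0% being called. An unadjusted p below 0.05 by edgeR was seen in 69 of the 77, against 13.8% of all genes. Because the members varied together over the same pools, these are not 69 separate pieces of evidence. By limma-voom 0 were called (0% of all genes), and DESeq2 called 11 of the 77 and 0.927% of all genes. Without Short pool 1 the median was 0.25 and 10 genes had an unadjusted p below 0.05, against 4.26% of all genes. Without Long pool 1 the median was 0.32 and that count was 15 (4.45% of all genes), and without Long pool 2 the median was 0.37 and the count 38 (5.58% of all genes). Without Short pool 2 the median was 0.43 and the count 67 (13.8% of all genes).

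The comparison of THX with Long pools asks about the thyroid at a constant day length, and here the 2 THX pools disagreed. The median over the members was 0.14 (1.10-fold), with 73 of 77 above 0, against 50.3% of all tested genes. THX pool 2 lay above both Long pools in 74 genes, but THX pool 1 lay within or below the Long pools in 47. These counts were not made over all tested genes. THX pool 2 also lay at one end of the first component of the genes that were no members (score 42.6). Both THX pools lay above both Long pools in 30 of 77 genes, against 18.5% of all genes, and none had both below, against 18.7% of all genes. None of the 77 passed by edgeR (lowest adjusted p 0.534, that of RPL36A), against 0.283% of all genes called, and 1 had an unadjusted p below 0.05, against 9.08% of all genes. DESeq2 and limma-voom also called 0 of the 77, where they called 2.5% and 0.25% of all genes. Without THX pool 2 the median was 0.014 with 45 of 77 above 0. Without THX pool 1 it was 0.25 with 76 above 0, and 49 had an unadjusted p below 0.05, against 11.1% of all genes.

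The comparison of THX with Short pools, which differ in thyroid and day length, had the highest median of the 3. All 77 genes lay above 0 in THX relative to Short pools, against 49% of all tested genes, with a median of 0.48 (1.39-fold) and an interquartile range of 0.42 to 0.53. Both THX pools lay above both Short pools in 75 genes, against 25.7% of all genes, RPL37A and RPS2 being the exceptions. The median was 0.48 for the large and 0.48 for the small subunit, 0.52 for the P stalk and 0.24 for the paralogs. Of the 77, only RPL36A rose by edgeR, and by limma-voom, which called 0.977% of all genes. EdgeR called 0.916% of all genes, 0.316% higher, and 72 of the 77 had an unadjusted p below 0.05, against 22.6% of all genes. DESeq2 called 70 of the 77, all higher in THX, where it called 9.65% of all genes. With no filter edgeR called 55 (3.82% of all genes), at an adjusted p under 0.1 it called 52 (5.12%), among genes with at least 5 CPM on average 2 (1.85%), and on the 4 pools compared 0 (0.0612%). Without THX pool 1 it called 66 (5.88% of all genes). It called 0 without THX pool 2 (0.432%), Long pool 1 (0.0865%), Long pool 2 (0.0864%), Short pool 1 (0.0541%) or Short pool 2 (0.194%), and 1 without both THX pool 2 and Short pool 1 (1.3%), where the median was 0.27. With total counts in place of TMM scaling the median of all genes shifted to −0.11, and the members' median was 0.37, which is 0.48 above all genes. The comparison shares its THX and its Short pools with the other comparisons, so the 3 medians are not independent of each other.

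**Figure D3:**
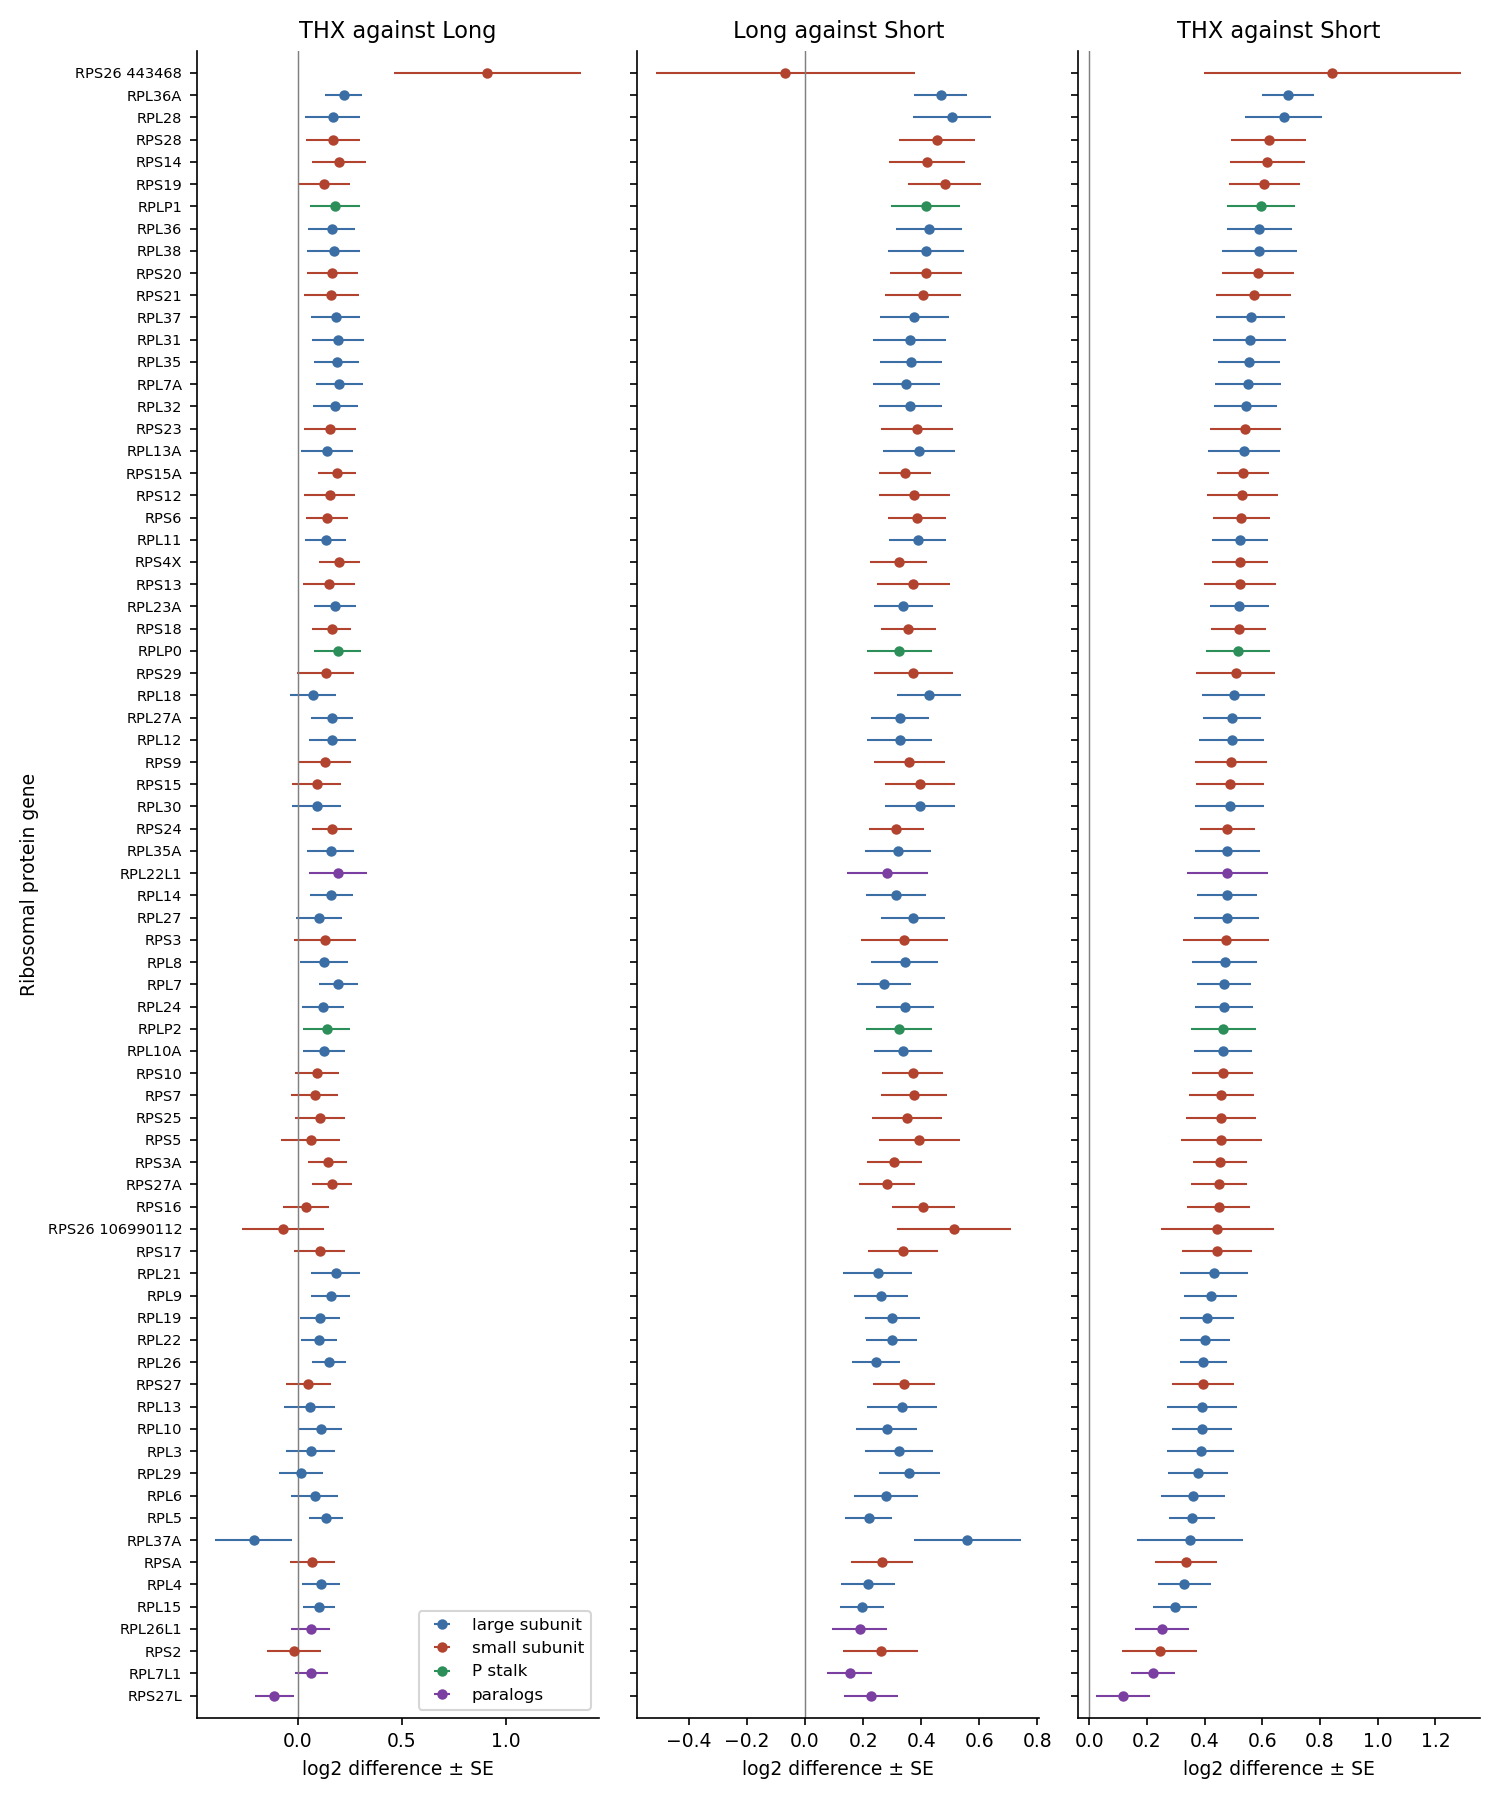
Log2 difference (x axis, with its SE) of 74 of the 77 genes (rows, sorted by THX against Short) in the 3 comparisons, coloured by subunit. In Long against Short all but 1 gene, and in THX against Short every gene, lie right of 0, and in THX against Long most lie between 0 and 0.25.

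Among large subunit proteins, RPL36A, which lies near the exit site for transfer RNA, had the lowest p of the 77 in all 3 comparisons. Listed under identifier 101105982, it had 227 and 260 CPM in THX, 212 and 205 CPM in Long, and 145 and 157 CPM in Short pools. The groups did not overlap, in the order THX, Long, Short. It rose in THX relative to Short pools (log2 difference 0.69, SE 0.091, adjusted p = 0.0322 by edgeR), and had log2 differences of 0.47 for Long against Short and 0.22 for THX against Long (adjusted p = 0.342 and 0.534). The call of RPL36A was lost in each fit that left out THX pool 2, a Long pool or a Short pool alone, with adjusted p from 0.0627 to 0.184, and on the 4 pools compared (0.0964). It was kept without THX pool 1 (0.031) and without both THX pool 2 and Short pool 1 (0.0383). RPL36AL, a close paralog outside the member rule because of its symbol, had 193 and 223 CPM in THX, 175 and 190 CPM in Long, and 134 and 169 CPM in Short pools (log2 difference 0.46 for THX against Short, adjusted p = 0.122). How the counting split reads between the paralogs is not given in the sources used here.

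RPL11, which together with RPL5 binds the p53 regulator MDM2 when ribosome assembly is disturbed, had 602 and 695 CPM in THX, 597 and 586 CPM in Long, and 427 and 476 CPM in Short pools. RPL7A had 1828 and 2196 CPM in THX, 1788 and 1715 CPM in Long, and 1280 and 1470 CPM in Short pools. In both genes the 3 groups stood apart, with the 2 THX pools further from each other than the 2 Long pools. RPL18, also of the large subunit, had log2 differences of 0.07 in THX against Long, 0.43 in Long against Short and 0.50 in THX against Short (adjusted p = 0.0834 for the last). RPL7 was at 0.20, 0.27 and 0.47 in the same order.

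The P stalk is a flexible arm of the large subunit, made of RPLP0 and pairs of RPLP1 and RPLP2, that recruits the translation factors which split GTP. RPLP0 had 1267 and 1530 CPM in THX, 1238 and 1210 CPM in Long, and 920 and 1035 CPM in Short pools. RPLP1 had 1803 and 2144 CPM in THX, 1808 and 1677 CPM in Long, and 1202 and 1410 CPM in Short pools. For RPLP1 and RPLP2 THX pool 1 fell between the Long pools, and for RPLP0 it lay above both. In THX against Short the log2 differences were 0.52 for RPLP0, 0.60 for RPLP1 and 0.46 for RPLP2 (adjusted p = 0.0809, 0.072 and 0.098), and in Long against Short 0.32, 0.42 and 0.32.

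Among small subunit proteins, RPS6, the best known substrate of the S6 kinases downstream of mTORC1, had 501 and 598 CPM in THX, 504 and 493 CPM in Long, and 370 and 393 CPM in Short pools. RPS15A had 465 and 523 CPM in THX, 434 and 432 CPM in Long, and 325 and 358 CPM in Short pools. RPS15A and RPS18 had the next lowest p after RPL36A in THX against Short (log2 differences 0.53 and 0.52, adjusted p = 0.0552 and 0.0622). RPS4X, X-linked in human, was at 0.52 (adjusted p = 0.0659). RPS27A, which is made as a fusion with ubiquitin, had 782 and 888 CPM in THX, 763 and 725 CPM in Long, and 578 and 645 CPM in Short pools. RPSA, which doubles as a laminin-binding protein, had 509 and 608 CPM in THX, 524 and 541 CPM in Long, and 417 and 469 CPM in Short pools, with log2 differences of 0.33 for THX against Short and 0.26 for Long against Short. In each of these genes both Short pools were the lowest.

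RPS2, at the entry channel of the mRNA, followed the others less closely. It had 627 and 796 CPM in THX, 728 and 712 CPM in Long, and 556 and 646 CPM in Short pools. THX pool 1 lay below Short pool 2, and the log2 difference was 0.24 for THX against Short and −0.02 for THX against Long (adjusted p = 0.302 and 0.993).

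RPS26, a small subunit protein near the exit of the mRNA, was listed under identifiers 106990112 and 443468, which did not follow each other across the pools. Identifier 443468 had 71.1 and 96.1 CPM in THX, 23.9 and 65.1 CPM in Long, and 58.1 and 34.9 CPM in Short pools. Identifier 106990112 had 207 and 260 CPM in THX, 266 and 225 CPM in Long, and 139 and 205 CPM in Short pools. The share of identifier 443468 in their sum ran from 8.24% in Long pool 1 to 29.4% in Short pool 1, and was 22.5% in Long pool 2 and 14.6% in Short pool 2. Their sum was 278 and 356 CPM in THX, 290 and 290 CPM in Long, and 197 and 240 CPM in Short pools, with both Short pools the lowest, THX pool 2 the highest and THX pool 1 below both Long pools. Fitted as 1 gene, RPS26 had log2 differences of 0.13 for THX against Long, 0.41 for Long against Short and 0.54 for THX against Short (adjusted p = 0.899, 0.341 and 0.107 by edgeR). Identifier 443468 alone gave 0.91, −0.07 and 0.84, and 106990112 alone −0.07, 0.51 and 0.44. Where a sequence is shared by near-identical copies, the values of the separate identifiers are uncertain. The sum was taken after these values were seen.

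RPL37A, a zinc-finger protein of the large subunit, has 1 identifier and also departed from the other members. It had 360 and 524 CPM in THX, 561 and 462 CPM in Long, and 371 and 323 CPM in Short pools. Relative to the members' median it was lowest in THX pool 1 (−0.32) and highest in Long pool 1 (0.31). It gave the lowest log2 difference of all members in THX against Long (−0.21, SE 0.184, adjusted p = 0.863), the highest in Long against Short (0.56, adjusted p = 0.342), and 0.35 in THX against Short.

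**Figure D4:**
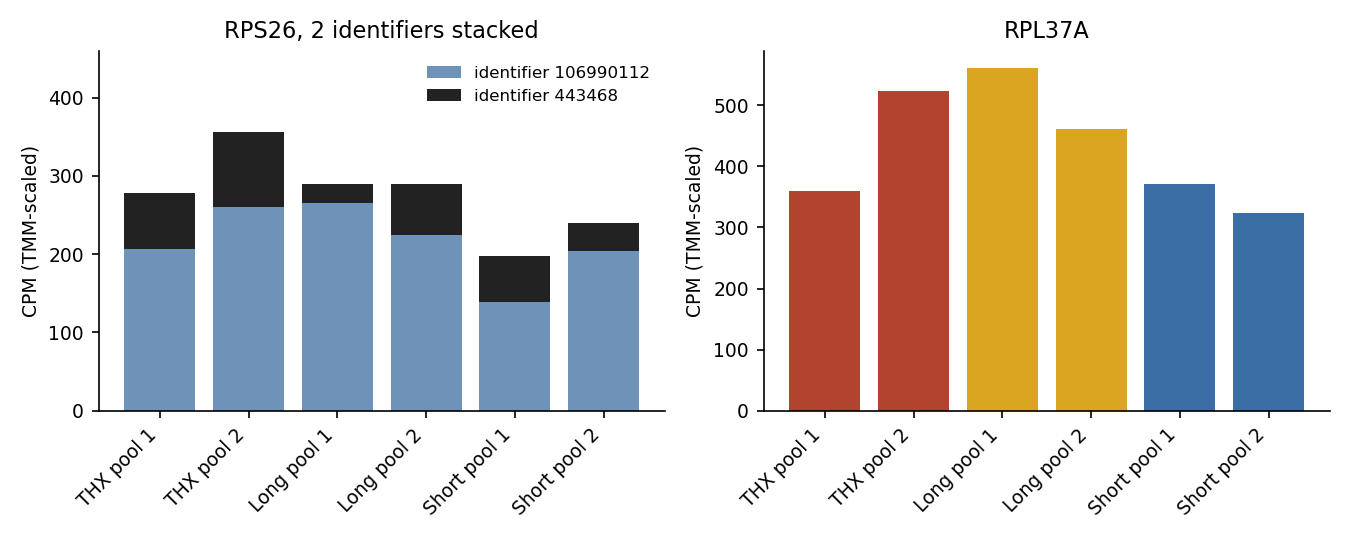
CPM per pool of RPS26, with its 2 identifiers stacked (left), and of RPL37A (right), both axes starting at 0. The stacked total of RPS26 is 290 CPM in both Long pools although the part of identifier 443468 differs between them, and RPL37A is highest in Long pool 1 at 561 CPM.

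The 4 paralogs varied in how closely they followed the other members. RPL22L1, the paralog of RPL22, had 20.4 and 24.4 CPM in THX, 19.2 and 19.9 CPM in Long, and 14.4 and 17.8 CPM in Short pools, a log2 difference of 0.48 for THX against Short. RPL26L1 was at 0.25 and RPL7L1 at 0.22 in that comparison (adjusted p = 0.185 and 0.165), with the THX pools above both Short pools. RPS27L, the paralog of RPS27 that p53 induces in human cells, had 108 and 121 CPM in THX, 131 and 115 CPM in Long, and 105 and 105 CPM in Short pools. Its log2 difference was −0.11 for THX against Long, 0.23 for Long against Short and 0.12 for THX against Short, the lowest of the 77 in the last (adjusted p = 0.853, 0.357 and 0.486). The median correlation of RPS27L with the other members was 0.658, against 0.316 for RPS26 identifier 443468 and 0.678 for RPL37A, the 3 lowest. Whether the paralogs differ from the core genes was not tested.

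Some components of the cytosolic ribosome have symbols outside the rule. FAU, which carries a further small subunit protein, had log2 differences of 0.40 in Long against Short and 0.45 in THX against Short. RACK1, a scaffold on the small subunit, was at 0.29 and 0.46. RPL23, listed without its symbol and named by the RefSeq table, had 193 and 164 CPM in THX, 183 and 121 CPM in Long, and 154 and 121 CPM in Short pools, so Long overlapped with both THX and Short pools. The 1 locus likewise named RPL34 by that table had 15 to 53 counts a pool, or 0.299 to 0.627 CPM over the 6 pools. Whether reads of RPL34 were counted at another locus or lost was not tested. The value of this locus is therefore not taken as the level of RPL34 in the tissue.

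Lists of related genes were set beside the members. The 27 elongation factors and other TOP mRNAs, which include FAU, RACK1 and RPL36AL, had medians of 0.09 in THX against Long, 0.14 in Long against Short and 0.26 in THX against Short. None was called, and 23, 24 and 25 of the 27 lay above 0. The elongation factor subunits EEF1D and EEF1G were at 0.37 and 0.22 in Long against Short, and the poly(A)-binding protein PABPC1 at 0.09.

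The 74 mitochondrial ribosomal proteins, which serve the separate ribosome of mitochondria, had medians of −0.04, 0.19 and 0.16 in the same order, with 32, 73 and 64 of 74 above 0 and none called. Among these, MRPL18 and MRPS11 were at 0.38 and 0.37 in Long against Short and at −0.08 and −0.12 in THX against Long. The respiratory chain list, of which 46 of 62 genes were tested, had medians of −0.03, 0.28 and 0.26, with 12, 44 and 43 of 46 above 0 and none called. Apart from NDUFB3 and CYC1, the untested genes all had symbols beginning with UQCR or COX, so the medians cover those subunits incompletely. NDUFA8, a subunit of complex I, was at 0.39 in Long against Short. In Long against Short these mitochondrial lists lay on the same side as the cytosolic ribosomal proteins, at smaller medians. Both Long pools lay above both Short pools in 43 of 46 respiratory chain genes, against 26.7% of all genes. For the mitochondrial ribosomal proteins this held in 58 of 74. An unadjusted p below 0.05 by edgeR was seen in 29 of 46 and 19 of 74, against 13.8% of all genes. In THX against Long the medians of both mitochondrial lists lay on the other side of 0, but the THX pools disagreed here too. On the centred log2 scale the respiratory chain median was −0.07 and 0.22 in THX, and 0.08 and 0.12 in Long pools. That of the mitochondrial ribosomal proteins was −0.03 and 0.12 in THX, and 0.07 and 0.07 in Long pools.

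The machinery that makes and regulates ribosomes did not show such a shift of its median. The 75 ribosome biogenesis genes had medians of −0.02 in THX against Long, 0.03 in Long against Short and 0.01 in THX against Short, with 32, 44 and 38 above 0. POLR1D, a subunit shared by RNA polymerases I and III, was the only one called, and had 50.3 and 48.8 CPM in THX, 39.2 and 40.2 CPM in Long, and 31.5 and 31.2 CPM in Short pools (log2 difference 0.66 for THX against Short, adjusted p = 0.0221 by edgeR). The helicase DDX21, which acts in ribosomal RNA synthesis, was at −0.58 in Long against Short (adjusted p = 0.342). The 39 genes of mTORC1 signalling and LARP1 had medians of 0.03, −0.04 and 0.05, and none was called. EIF4EBP1, a translation inhibitor that mTORC1 phosphorylates, was at 0.33 in Long against Short and 0.13 in THX against Long. The 18 tested genes of the response to unbalanced ribosomal proteins, with p53 targets and MYC, had medians of −0.02, 0.10 and 0.17, and none was called.

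**Figure D5:**
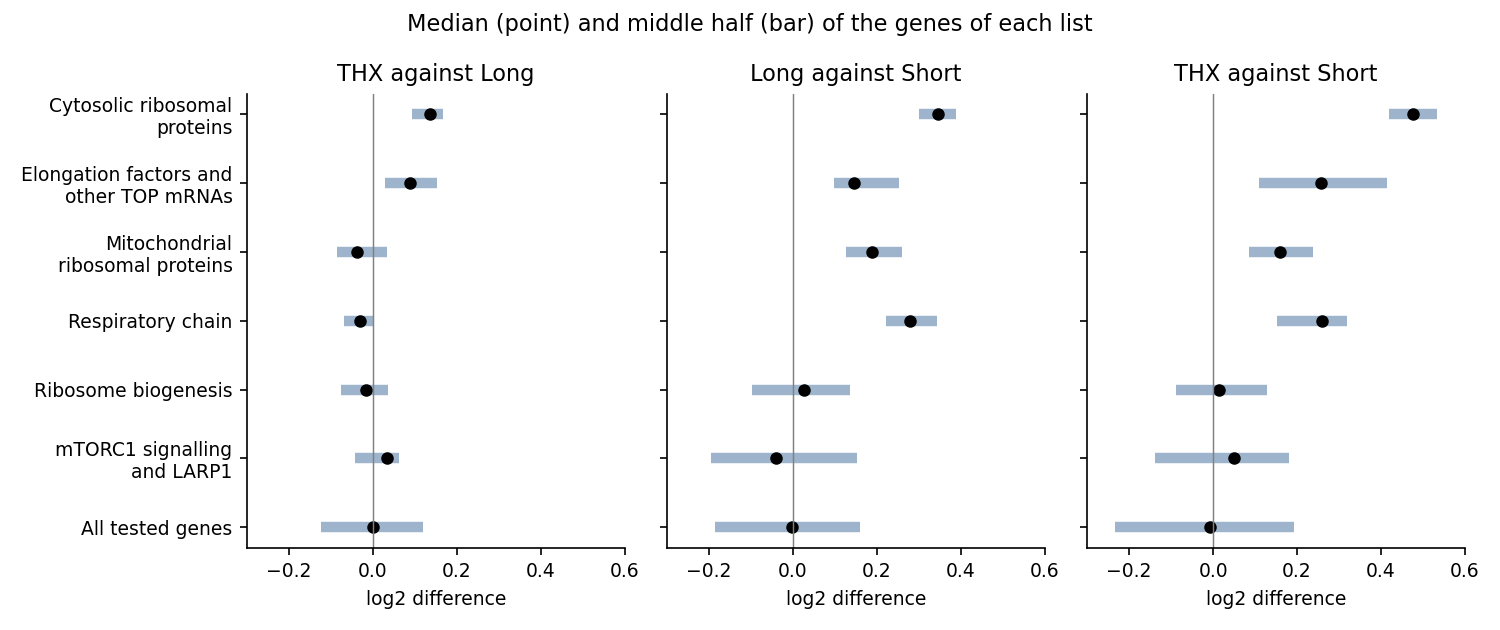
Median (point) and interquartile range (bar) of the log2 differences of the genes of each list and of all tested genes, in the 3 comparisons. The cytosolic ribosomal proteins have the highest medians of the 7 rows in each panel, 0.14, 0.35 and 0.48, and narrow bars.

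Of the 42 tested markers of other cell types, only 1 was called in any comparison, but the sums of some types did not overlap between groups. The 6 fibroblast markers summed to 441 to 582 CPM in THX pools, 735 to 806 CPM in Long pools and 657 to 846 CPM in Short pools, and lumican (LUM) was called lower in THX than in Long and in Short pools. The 4 mural cell markers summed to 614 to 728 CPM in THX, 700 to 727 CPM in Long and 812 to 995 CPM in Short pools. The 3 tested ependymal markers summed to 468 to 538 CPM in THX, 353 to 428 CPM in Long and 358 to 360 CPM in Short pools, and the fourth, TMEM212, had 0 to 5 counts a pool. Most of that sum was FOXJ1, with 432 and 496 CPM in THX, 393 and 323 CPM in Long, and 331 and 331 CPM in Short pools. CCDC153 had 24.9 to 35.5 CPM over the pools, and RSPH1, at most 6.23 CPM, overlapped between THX and Long pools. Macrophage markers summed to 136 to 143 CPM in THX, 154 to 161 CPM in Long and 129 to 146 CPM in Short pools. In the same order, lymphocyte markers summed to 36.1 to 41.6, 45.2 to 49.3 and 40.8 to 53.3 CPM. Oligodendrocyte markers summed to 61.1 to 66.4, 69.8 to 83.2 and 76.6 to 81.9 CPM. Neuron markers summed to 330 to 339, 293 to 315 and 296 to 304 CPM. Over all pools, endothelial markers summed to 431 to 546 CPM and astrocyte markers to 61.8 to 84.3 CPM. HBB of red blood cells was at 53.5 CPM in Long pool 2 and at most 4.59 CPM elsewhere. The neuron sum was mostly SNAP25, at 282 to 324 CPM. Of the other neuron markers, RBFOX3 had 5.58 to 14.4 CPM, SYT1 at most 0.81 CPM and STMN2 at most 0.50 CPM. The part of the cell makeup in the ribosomal protein result was not tested. The sums of the 9 epithelial markers other than TTR, given above, overlapped between all 3 groups. Of all 10 with TTR, 7 lay above 0 in THX against Long (median log2 difference 0.17), 5 in Long against Short (−0.01) and 6 in THX against Short (0.23). The chloride channel protein CLIC6 had 879 and 867 CPM in THX, 721 and 679 CPM in Long, and 667 and 653 CPM in Short pools (log2 difference 0.32 for THX against Long and 0.40 for THX against Short, adjusted p = 0.222 and 0.0615 by edgeR). The keratin KRT8 had 3.4 and 2.35 CPM in THX, 0.82 and 0.39 CPM in Long, and 0.88 and 1.47 CPM in Short pools (2.24 and 1.30, adjusted p = 0.166 and 0.148). The serotonin receptor HTR2C was the only one of the 10 called in any comparison, being lower in THX than in Long and in Short pools, with 27.2 and 26.1 CPM in THX, 44.4 and 44.1 CPM in Long, and 70.4 and 69.4 CPM in Short pools.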

How the data were processed

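PolyA RNA was sequenced from 6 pools with a stranded library kit, per the labels. The submitters' processing notes name featureCounts 2.0.0, TopHat2 2.1.1, SAMtools 1.9, bcl2fastq 2.20, MultiQC 1.9 and FastQC 0.11.8. The authors deposited raw counts per gene, without normalisation. What build, annotation and strand setting were used is not given in the sources used here. Of the 77 member identifiers, 75 were in the RefSeq table of ARS-UI_Ramb_v3.0, used for names alone. Transcript lengths were not used, so levels are not compared between genes.

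Genes were filtered by the default of edgeR 4.0.16 in R 4.3.3, scaled by TMM, and fitted with 1 mean per group over all 6 pools (3 residual degrees of freedom). Pairs of groups were compared with glmQLFTest (quasi-likelihood, two-sided), with Benjamini-Hochberg adjustment over 18019 genes and a threshold of 0.05. CPM are TMM-scaled except in the member rule. An exact permutation test of 2 against 2 pools cannot go below 0.333 and was not used. Of the 77 members, 73 had at least 4000 counts in every pool, a counting error of at most 1.58%. The procedure was also run on simulated counts drawn separately for each gene. Such counts cannot speak to genes that vary together from pool to pool, as the members did. Alternatives used DESeq2 1.42.0 and limma 3.58.1. Figures used matplotlib 3.10.9.

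Members and lists were chosen with earlier results of these data known. Named members were those with the 5 lowest p, the 2 highest and the 2 lowest log2 differences of each comparison, the 5 with the most counts, members with a sign opposite to the median, RPLP0 to RPLP2, RPSA, RPS6, RPS27A and the paralogs. Up to 3 genes with the lowest p were taken from each other list, and not all are printed. Some members are not reported by name here.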

Additional observations from a re-analysis of the deposited data

How the results depend on the processing

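No alternative gave a median of opposite sign. In THX against Short, edgeR called 55 of the 77 genes with no filter, against 3.82% of all genes. It called 2 at a mean of at least 5 CPM (1.85% of all genes), 52 at an adjusted p under 0.1 (5.12%) and 0 on the 4 pools compared (0.0612%). DESeq2 called 70 in THX against Short (9.65% of all genes) and 11 in Long against Short (0.927%). A replicate block for the pool number gave 18 calls in THX against Short (2.18% of all genes) and 0 in the other comparisons, but same-numbered pools correlated at only 0.07, −0.06 and 0.21, so the number was not taken as a pairing. Leaving out 1 pool at a time gave 0 to 66 calls and medians of 0.36 to 0.60 in THX against Short, 0.014 to 0.25 in THX against Long and 0.25 to 0.43 in Long against Short. Without both THX pool 2 and Short pool 1, chosen after seeing the data, the median of THX against Short was 0.27. Without TTR in the totals the mean share was 5.40% in THX, 5.0% in Long and 4.02% in Short pools.

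Leaving out 1 pool changed the sign of some log2 differences. In THX against Long the range was −0.048 to 0.19 for RPL18, −0.0074 to 0.28 for RPLP2 and −0.063 to 0.19 for RPSA, each lowest without THX pool 2. It was −0.50 to 0.032 for RPL37A, −0.20 to 0.14 for RPS2 and −0.24 to 0.084 for RPS26 (106990112), each highest without THX pool 1. In Long against Short, RPS26 (443468) ranged from −0.96 without Long pool 2 to 0.48 without Long pool 1, and was at 0.35 without Short pool 1. The cause was not tested. Of the 77 members, 73 had at least 4000 counts in every pool. RPS26 (443468) was not among them, with a lowest count of 1339.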
